A study of Mus musculus with 3 samples.

Results

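Saa3, which encodes serum amyloid A3, and Cp, which encodes ceruloplasmin, were followed through 3 single-cell RNA libraries of mouse brain. They are 2 of the 32285 genes in the count tables, and both were chosen by their levels in these libraries: Saa3 UMIs in microglia, the libraries' ratios and the share held by few cells were already known. Every level and ratio given for them is therefore a description with no test. The cells came from Apoe knockout mice and had been sorted as CD45int CD11b+, a gate set for microglia, at day 4, either after sham induction or with NMOSD induced (neuromyelitis optica spectrum disorder, in which antibodies commonly target the water channel of astrocytes). The first group had NMOSD induced and received APOE130-149, a peptide named after a stretch of apolipoprotein E. The second had NMOSD induced and received a control peptide. The third had sham induction and received PBS. All groups lacked Apoe, so no library shows Saa3 or Cp in mice with Apoe intact. The labels state neither the age of the mice nor how the knockout was made. Each group was 1 library from a pool of 4 mice, so the spread between mice cannot be seen and no difference between libraries has a replicate check. Brackets give exact 95% intervals, which cover counting error only.

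The acute phase response is the change in secreted proteins that follows injury or infection, driven mainly by interleukin-6, interleukin-1 and tumour necrosis factor acting through the transcription factors STAT3, C/EBP and NF-kB. Serum amyloid A proteins are small lipoprotein-bound members of that response. In mice, Saa1 and Saa2 are made chiefly in the liver, while Saa3 is made outside it too, in macrophages and fat among other cells, and in humans its counterpart is a pseudogene. Ceruloplasmin is a copper-carrying ferroxidase that oxidises iron as it leaves cells through ferroportin, so that transferrin can bind it; the liver secretes it into plasma, and in the brain a membrane-anchored form is known from astrocytes.

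Saa3 (ENSMUSG00000040026) lay on chromosome 7, 46711998 to 46715700 on the minus strand of GRCm38, and no other annotated gene overlapped it. Cp (ENSMUSG00000003617) lay on chromosome 3, 19957054 to 20009145 on the plus strand, and overlapped Hps3 on the opposite strand. Hps3, a subunit of a complex for lysosome-related organelles, was counted at 159, 167 and 202 CPM (UMIs of a gene per 1000000 UMIs of the cells summed) in microglia of the APOE130-149, control peptide and sham libraries. Whether counting used strand is not given in the sources used here, so Cp counts may hold reads of Hps3. The promoter windows of both genes are printed because they differed in the motifs of acute phase factors. Each runs from 250 bases before to 50 after the start site in RefSeq's annotation of GRCm38.p6, at chr7:46715627-46715926 on the minus strand for Saa3 and chr3:19956804-19957103 on the plus strand for Cp, for which RefSeq listed 2 windows and the one at the annotated gene start is shown. Capitals mark the match to the C/EBP motif TTNNGCAA.
Saa3: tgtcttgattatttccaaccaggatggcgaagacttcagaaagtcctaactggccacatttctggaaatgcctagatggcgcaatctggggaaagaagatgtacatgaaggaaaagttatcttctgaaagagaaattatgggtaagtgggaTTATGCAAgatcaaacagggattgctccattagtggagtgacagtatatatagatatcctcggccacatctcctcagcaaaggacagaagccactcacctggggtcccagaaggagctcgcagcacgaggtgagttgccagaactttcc
Cp: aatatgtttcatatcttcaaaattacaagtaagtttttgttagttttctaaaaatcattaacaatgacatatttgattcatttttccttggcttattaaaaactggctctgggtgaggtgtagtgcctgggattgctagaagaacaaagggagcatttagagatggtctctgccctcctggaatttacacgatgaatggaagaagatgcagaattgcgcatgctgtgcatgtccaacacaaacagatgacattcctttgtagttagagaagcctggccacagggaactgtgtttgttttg
The Saa3 window held TTATGCAA, 99 bases before the RefSeq start site. Overlapping matches to the TATA motif TATANA lay 55, 53 and 51 bases before that site. The site lies inside the Saa3 gene as given above, which begins at 46715700 on the minus strand. From that beginning the motifs are fewer bases away. The Cp window held no match to either motif. Neither window matched the NF-kB motif or the STAT motif TTCNNNGAA. Both strands were searched, and of 32851 RefSeq windows of the same length 10.8% held the C/EBP motif, 24.7% TATANA, 1.20% the NF-kB motif and 8.30% the STAT motif. These are matches of letters and no factor was measured there.

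The APOE130-149, control peptide and sham libraries held 2175, 5306 and 4674 barcodes with 32060750, 61469677 and 32712199 UMIs, the unique molecular identifiers that count transcripts. After filtering, 2025, 5011 and 4231 cells were left, and 3 to 12 barcodes of each library also occurred in another. Cells were sorted into classes by detected markers. Microglia, which lacked 3 markers of any other class, numbered 1199, 3403 and 3436 cells, with medians of 8514, 7115 and 7112.5 UMIs, and held the microglial receptor gene P2ry12 at 2805, 2531 and 2640 CPM. The class for border-associated macrophages, the macrophages of the meninges and vessel walls, held 54, 105 and 67 cells, with their markers summing to 2292, 2305 and 2303 CPM, against 38.1, 35.3 and 32.1 CPM in microglia. P2ry12 stood at 1921, 1830 and 1401 CPM in that class, so it was not free of microglial RNA. The class set for neutrophils went against its name: its 578, 1112 and 597 cells held a median of 9, 9 and 8 of the 9 microglia markers and P2ry12 at 2437, 2230 and 2484 CPM, and it is called here microglia with neutrophil-marker UMIs. Apoe was counted at 97.4, 91.3 and 78.3 CPM in microglia of the knockout mice; the deleted part of the gene is not given, so these 3′ counts do not check the genotype.

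Microglia of the sham library held the most Saa3. Saa3 had 751 UMIs in the APOE130-149 library, 1280 in the control peptide library and 2575 in the sham library, which came to 65.5 CPM [60.9 to 70.4], 44.4 CPM [42.0 to 46.9] and 102 CPM [98.6 to 107]. Both NMOSD libraries were thus below sham, and their intervals did not reach it. Marker RNA of other cells also differed between these microglia: choroid plexus and ependymal markers, 4 of 5 of them counted in each library, summed to 1577, 705 and 1.31 CPM, and B cell markers, 4, 3 and 3 of 4 counted, to 45.7, 49.6 and 304 CPM. Their part in the Saa3 difference was not tested. With the control peptide Saa3 was 2.31-fold lower than in sham [2.16 to 2.47], and 0.931% of 8488 genes were lower by at least 1.5-fold in that pair of libraries. With APOE130-149 it was 1.56-fold lower than in sham [1.44 to 1.70], where 1.11% of 8529 genes were lower by that much. Between the peptides Saa3 was 1.47-fold higher with APOE130-149 than with the control peptide [1.35 to 1.61], under the 1.5-fold bound that 0.725% of 8414 genes passed.

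The difference between the peptides rested on 1 cell. That cell, in the APOE130-149 library, held 283 of the 751 Saa3 UMIs (37.7%), against 56 in the next cell, and had 6 of 9 microglia markers and 1 P2ry12 UMI among 24222 UMIs. Without the cell with most Saa3 in each library, Saa3 stood at 40.9 CPM with APOE130-149, 39.6 CPM with the control peptide and 95.5 CPM in sham. The peptides were then 1.03-fold apart [0.926 to 1.15], an interval that includes 1, while APOE130-149 was 2.33-fold lower than sham [2.11 to 2.58] and the control peptide 2.41-fold lower. The sham excess over both NMOSD libraries was therefore as large or larger without those cells.

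Cp followed another order, with the APOE130-149 and sham libraries level and the control peptide library below both. It had 436, 672 and 992 UMIs in microglia of the APOE130-149, control peptide and sham libraries, or 38.0 CPM [34.5 to 41.8], 23.3 CPM [21.6 to 25.2] and 39.5 CPM [37.1 to 42.0]. Cp was 1.63-fold higher with APOE130-149 than with the control peptide [1.44 to 1.84]. It was 1.69-fold lower with the control peptide than in sham [1.53 to 1.87]. Between APOE130-149 and sham the ratio was 0.963 [0.859 to 1.08].

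A single cell carried part of this order too. In the APOE130-149 library 102 of the 436 Cp UMIs (23.4%) lay in a cell of 38099 UMIs that held all 5 endothelial markers, among them 32 UMIs of the tight junction gene Cldn5, 3 of 5 fibroblast markers and 2 P2ry12 UMIs. The sham cell with most Cp, 25 UMIs, held all 5 fibroblast markers, with 96 UMIs of the matrix gene Dcn and none of P2ry12. Without the top cell of each library Cp stood at 29.2, 23.0 and 38.5 CPM in the APOE130-149, control peptide and sham libraries. APOE130-149 was then 1.27-fold higher than the control peptide [1.11 to 1.45] and 1.32-fold lower than sham [1.16 to 1.5]. Leaving out all microglia with 3 or more markers of a cell type that had no class, 20, 37 and 6 cells, gave close to the same Cp levels, at 29.5, 23.1 and 38.4 CPM, and moved Saa3 little, at 66.9, 44.1 and 102 CPM.

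**Figure D1:**
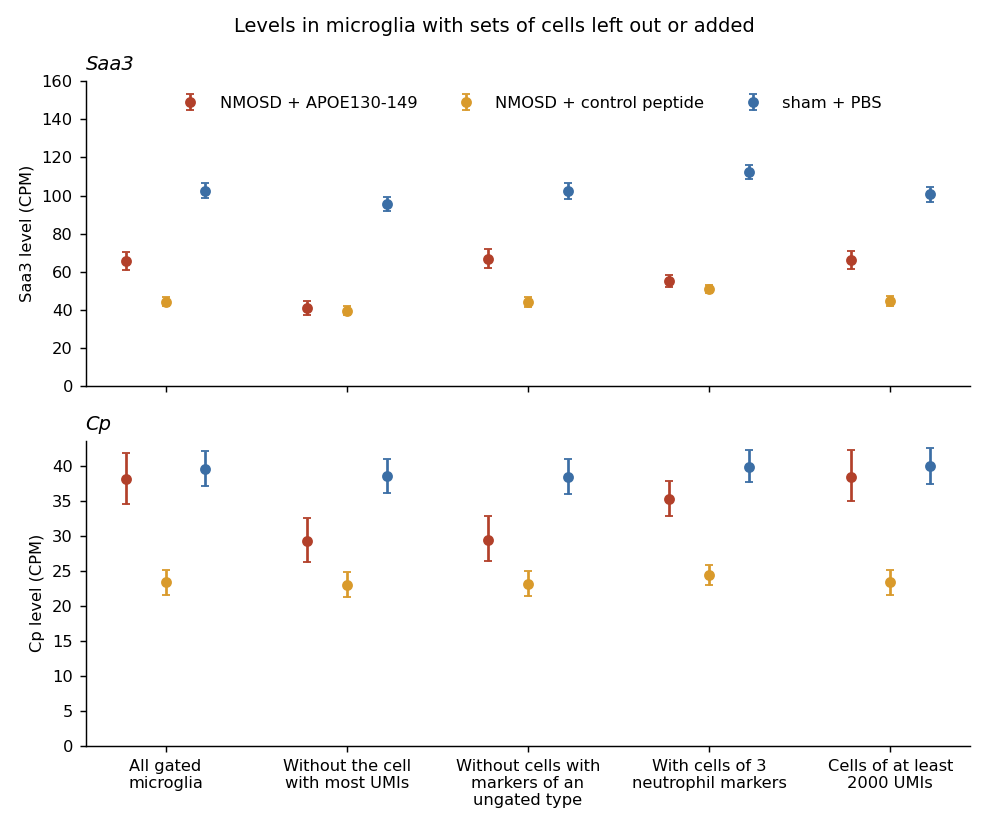
Levels of Saa3 (top) and Cp (bottom) in microglia, in CPM from 0, for all cells, without the cell holding most UMIs of the gene, and for the further sets of cells named on the axis; colours are the libraries and bars the exact 95% Poisson intervals. Saa3 with APOE130-149 drops to 40.9 CPM without 1 cell and then sits beside the control peptide at 39.6 CPM, while sham stays at 95.5 CPM.

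The choice of cells moved the NMOSD libraries more than the order against sham. With the neutrophil-marker cells put back among the microglia, 1763, 4488 and 4017 cells in all, Saa3 stood at 55.2 CPM with APOE130-149, 51.1 CPM with the control peptide and 112 CPM in sham, and the peptides were 1.08-fold apart. Cp stood at 35.2, 24.4 and 39.8 CPM in the same cells, 1.45-fold higher with APOE130-149 than with the control peptide. Where 2 markers were enough for a class, so that more cells left the microglia for another, 667, 2082 and 2288 cells were left, and both genes turned to lower with APOE130-149 than with the control peptide: Saa3 stood at 32.7, 42.9 and 105 CPM and Cp at 20.9, 23.0 and 39.4 CPM. The APOE130-149 cells with most Saa3 and most Cp, described above, each held 2 neutrophil markers. Both therefore left the microglia where 2 markers were enough. Saa3 was lower in both NMOSD libraries than in sham under each of these choices of cells.

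Saa3 UMIs were held by few cells. In microglia 92.6%, 94.3% and 88.6% of cells had none with APOE130-149, the control peptide and sham. Cells with 5 or more Saa3 UMIs numbered 24, 64 and 105 and held 87.2%, 84.5% and 84.6% of all Saa3 UMIs. Such cells were thus 2.00%, 1.88% and 3.06% of the microglia, and the highest share was that of sham. Those with 50 or more numbered 3, 4 and 8. The 0.25% of microglia with most Saa3, 3, 9 and 9 cells, held 51.9%, 39.5% and 28.5% of its UMIs. Among the genes of at least 50 CPM, 3249, 3236 and 3381 in the 3 libraries, the median share of the top 0.25% was 2.14%, 2.49% and 2.72%. Of those genes 2, 4 and 5 had a higher share than Saa3. Saa3 was chosen with its share known, so this place is a description only. With the control peptide Saa3, at 44.4 CPM, was itself below the bound of that background. With those cells left out Saa3 was still at 31.6, 27.0 and 73.5 CPM.

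Cp was spread over more cells. Microglia without a Cp UMI made up 87.2%, 89.9% and 87.2% of cells with APOE130-149, the control peptide and sham. Cells with 5 or more Cp UMIs numbered 15, 22 and 43 and held 47.0%, 21.9% and 31.7% of its UMIs, and 4, 1 and 4 cells held 10 or more. The top 0.25% of microglia held 28.2%, 11.0% and 11.3%, and 8, 17 and 19 genes of the same background had a higher share. Cp itself was below the 50 CPM bound of that background in each library, so it is ranked there among genes of higher level. Its place is not a like comparison. Without those cells Cp stood at 27.5, 20.9 and 35.2 CPM.

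**Figure D2:**
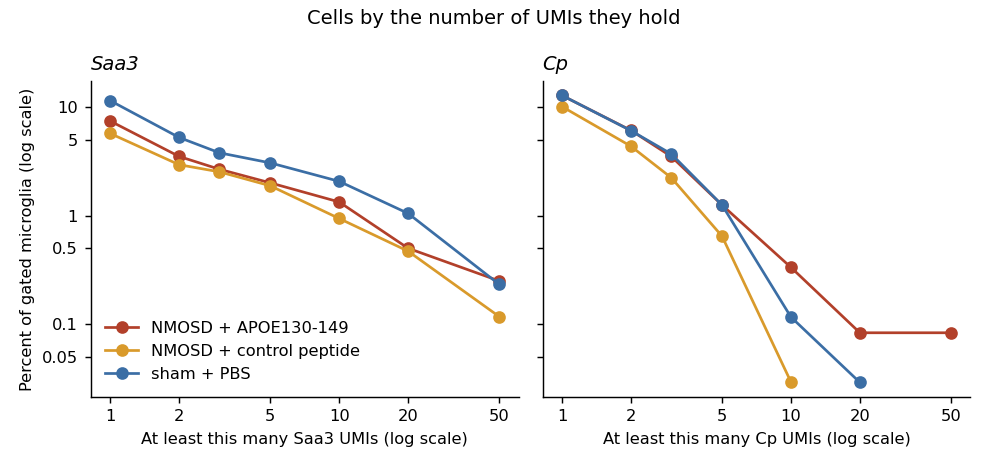
Share of microglia, in percent on a log axis, that hold at least the number of Saa3 (left) or Cp (right) UMIs on the horizontal log axis, with a line per library. The Saa3 lines fall slowly, with 2.00%, 1.88% and 3.06% of microglia at 5 UMIs or more, whereas for Cp 4, 1 and 4 cells reach 10 UMIs.

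A single UMI of Saa3 was a weak sign of expression. A Saa3 UMI was found in 7.42% [6.0 to 9.06], 5.70% [4.95 to 6.53] and 11.4% [10.4 to 12.5] of microglia with APOE130-149, the control peptide and sham. In the monocyte class, where Saa3 summed to at most 10.3 CPM, a single Saa3 UMI was found in 0 of 19, 3 of 40 (7.50%) and 3 of 24 cells (12.5%), at median depths of 11072, 13334 and 13760.5 UMIs. Those monocyte shares have wide intervals, [1.57 to 20.4] with the control peptide and [2.66 to 32.4] in sham. The microglial shares lay at or below them in both libraries, in shallower cells, so a lone Saa3 UMI is not read as expression. No monocyte held a second Saa3 UMI, whereas 3.50%, 2.94% and 5.24% of microglia held 2 or more. For Cp the shares were 12.8% [10.9 to 14.8], 10.1% [9.09 to 11.1] and 12.8% [11.7 to 13.9] of microglia, against 0 of 19, 3 of 40 (7.50%) and 1 of 24 monocytes (4.17%).

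Detection also followed depth. Thinned to 3000 UMIs per cell, with 165, 287 and 860 shallower microglia left out, Saa3 was detected in 4.45%, 3.31% and 6.09% and Cp in 7.06%, 4.59% and 8.07% of microglia with APOE130-149, the control peptide and sham. For both genes the control peptide library was then lowest and sham highest. In microglia of 10000 UMIs and more Saa3 stood at 87.2, 62.5 and 109 CPM and Cp at 51.9, 26.3 and 53.7 CPM. In those of 5000 to 10000 UMIs Saa3 stood at 37.7, 31.2 and 99.4 CPM and Cp at 18.6, 21.7 and 29.0 CPM, so the Cp excess of APOE130-149 over the control peptide was not seen in that band. Saa3 was higher in sham than in either NMOSD library in each of 4 bands of depth.

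The shallowest sham cells carried Saa3 in a different way. Among 740 sham microglia of 500 to 2000 UMIs, 110 (14.9%) held Saa3, with at most 4 UMIs in a cell, and the level was 152 CPM. The same band held 120 cells with APOE130-149 and 201 with the control peptide, of which 3 and 7 held Saa3, at 20.2 and 31.1 CPM. Cp stood at 6.72, 23.3 and 28.4 CPM there. With cells under 2000 UMIs left out, Saa3 stood at 66.1, 44.5 and 101 CPM, close to its level in all microglia of each library.

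**Figure D3:**
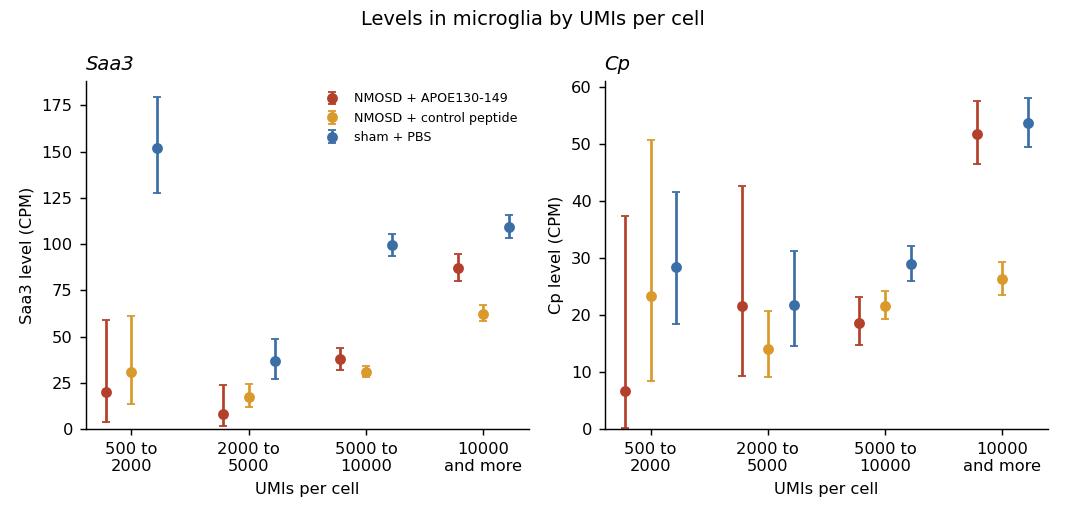
Levels of Saa3 (left) and Cp (right) in microglia by band of UMIs per cell, in CPM, with a colour per library and exact 95% Poisson intervals. Saa3 in sham lies above both NMOSD libraries in each band, with 152 CPM in the shallowest and 109 CPM in the deepest.

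Cp was several times higher in the border-associated macrophage class than in microglia, in every library. It had 120 UMIs with APOE130-149, 269 with the control peptide and 188 in sham, or 157 CPM [130 to 187], 166 CPM [147 to 188] and 180 CPM [155 to 208]. Those levels were 4.12-fold [3.34 to 5.05], 7.14-fold [6.17 to 8.23] and 4.56-fold [3.88 to 5.33] above the microglia of the same library. Unlike in microglia, Cp was level between libraries: the ratio was 0.941 [0.753 to 1.17] for APOE130-149 over the control peptide, 0.925 [0.765 to 1.12] for the control peptide over sham and 0.870 [0.686 to 1.10] for APOE130-149 over sham. These levels were not those of single cells, since Cp stood at 139, 158 and 168 CPM without the top cell of each library. A Cp UMI was found in 55.6%, 61.0% and 61.2% of these cells, and in 37.0%, 33.7% and 29.5% after thinning to 3000 UMIs.

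Saa3 did not share that pattern. It stood at 312, 59.4 and 120 CPM in the border-associated macrophage class with APOE130-149, the control peptide and sham, 4.76-fold, 1.34-fold and 1.17-fold [0.968 to 1.40] above microglia. In the APOE130-149 library 140 of its 239 UMIs (58.6%) lay in 1 cell with 1 UMI each of P2ry12 and of the mannose receptor gene Mrc1, which marks these macrophages. Without the top cell of each library the levels were 131 CPM [106 to 159], 43.0 CPM and 103 CPM [84.4 to 126]. Microglia without their top cells stood at 40.9, 39.6 and 95.5 CPM. With APOE130-149 the interval of the border-associated macrophage class, [106 to 159], lay above the microglial value. With the control peptide, [33.4 to 54.5], and in sham, [84.4 to 126], it included the microglial value of the same library.

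Neutrophils told from microglia, and the monocyte class, held few or no UMIs of either gene. Cells with 3 or more neutrophil markers and under 3 microglia markers numbered 14, 27 and 16 with APOE130-149, the control peptide and sham. They held the granule gene S100a8 at 92424, 94113 and 92951 CPM and P2ry12 at 64.8, 50.9 and 27.1 CPM. Saa3 had 1, 1 and 0 UMIs in them and Cp had none, and a count of 0 allows up to 27.8, 19.1 and 40.7 CPM of Cp. The sham limit lies above the 39.5 CPM of sham microglia, so a lower Cp level cannot be told there. Saa3 with APOE130-149 was 9.26 CPM [0.234 to 51.6], an interval that includes the 40.9 CPM of microglia without their top cell. The monocyte class, 19, 40 and 24 cells, held microglia markers too, summing to 3304, 3391 and 990 CPM beside monocyte markers at 3477, 3768 and 5639 CPM. It held 0, 3 and 3 Saa3 UMIs and 0, 3 and 1 Cp UMIs, and for both genes the 0 with APOE130-149 allows up to 12.6 CPM. With the control peptide and sham, Saa3 in monocytes was 4.61 CPM [0.951 to 13.5] and 10.3 CPM [2.13 to 30.1], below the microglia of the same library. Its 4, 16 and 7 cells with under 3 microglia markers held 0, 1 and 1 Saa3 UMIs and no Cp UMI.

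The microglia with neutrophil-marker UMIs also held both genes, in another order for Saa3. Saa3 stood at 44.8, 61.4 and 165 CPM there with APOE130-149, the control peptide and sham, and Cp at 32.2, 25.8 and 41.2 CPM. In this class Saa3 with APOE130-149 lay below the control peptide, the opposite of the order in the microglia class. Of the sham Saa3 UMIs in it, 26.8% lay in 1 cell. Cells with 3 markers of several classes, which had medians of 30549, 31344.5 and 15633.5 UMIs, held Saa3 at 79.1, 67.1 and 54.3 CPM and Cp at 79.1, 59.2 and 71.6 CPM. Summed over all cells kept, whatever their class, Saa3 stood at 66.1, 53.6 and 109 CPM and Cp at 48.1, 34.4 and 45.1 CPM.

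Microglia rich in Saa3 also held more Cp, in all 3 libraries. Cp stood at 107 CPM in cells with 5 or more Saa3 UMIs and 35.1 CPM in cells with none with APOE130-149. With the control peptide it stood at 52.6 CPM in Saa3-rich cells and 21.1 CPM in cells with none, and in sham at 104 CPM and 33.6 CPM. The ratios of Saa3-rich cells over cells with none were 3.03 [2.16 to 4.17], 2.50 [1.81 to 3.38] and 3.08 [2.56 to 3.67]. A Cp UMI was found in 50% of Saa3-rich cells with APOE130-149, 29.7% with the control peptide and 52.4% in sham, against 11.1%, 9.26% and 10.9% of cells with no Saa3.

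Depth moved with this relation but the ratios stayed above 1 within bands of depth. The bands also left out cells with 3 or more markers of a type with no class. The ratios over all microglia, and those without the cell with most Cp, included such cells, so depth was not the only difference. The median depth was 15533.5, 12052.5 and 11188 UMIs for Saa3-rich cells and 8417.5, 7039 and 7048 UMIs for cells with no Saa3. Within cells of 3000 to 10000 UMIs the Cp ratio was 12.4 [5.44 to 25.1] with APOE130-149, from 6 Saa3-rich cells, 5.70 [3.33 to 9.19] with the control peptide, from 23, and 4.42 [3.08 to 6.20] in sham, from 47. Within cells of 10000 UMIs and more it was 2.86 [1.92 to 4.14], 1.56 [0.992 to 2.36] and 2.24 [1.79 to 2.79], and the control peptide interval includes 1. Leaving out the Saa3-rich cell with most Cp, among cells of at least 3000 UMIs, gave 2.36 [1.59 to 3.40], 2.16 [1.52 to 3.0] and 2.91 [2.41 to 3.49].

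Seen from Cp, the relation was less even. Saa3 stood at 1004, 210 and 485 CPM in the 15, 22 and 43 cells with 5 or more Cp UMIs with APOE130-149, the control peptide and sham, against 28.8, 37.0 and 61.1 CPM in cells with no Cp. Without the Cp-rich cell with most Saa3 those levels were 91.7, 43.1 and 381 CPM, so in the NMOSD libraries most of that Saa3 lay in 1 cell. A Saa3 UMI was found in 26.7%, 22.7% and 32.6% of Cp-rich cells, against 5.64%, 4.84% and 9.58% of cells with no Cp. The 4 sham cells with 10 or more Cp UMIs held no Saa3. Over all microglia the correlation of the 2 genes across cells was weak, with Pearson's r of 0.188, 0.098 and 0.138 over 1199, 3403 and 3436 cells that share a library.

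**Figure D4:**
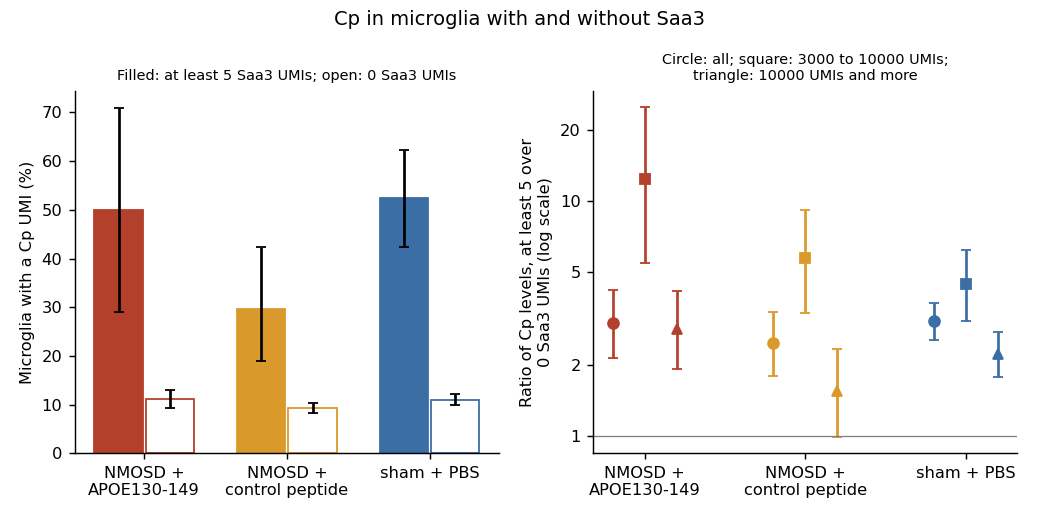
Left: percent of microglia with a Cp UMI among cells with at least 5 Saa3 UMIs (filled bars) and with none (open bars), with exact 95% binomial intervals. Right: ratio of Cp levels of these cells on a log axis, for all microglia and for 2 bands of depth. The bands also leave out cells with 3 or more markers of a type with no class. The ratio for all microglia is 3.03, 2.50 and 3.08 with APOE130-149, the control peptide and sham, and 1 of the intervals by depth includes 1.

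Across the 3436 sham microglia no gene went closely with Saa3. Of 8369 genes, 34 (0.406%) had an r of at least 0.1 with Saa3, and the highest was 0.138. The 10 highest were the protease gene Ctsd, Cp, the ribosomal protein genes Rpl23, Rpl32 and Rpl37a, the immunoglobulin light chain gene Igkc, the surface antigen gene Cd52, the chemokine gene Ccl5, the ferritin light chain gene Ftl1 and the interferon-induced gene Ifi27l2a. Among them Ccl5 kept its place best, with r of 0.141 with APOE130-149, 0.120 with the control peptide and 0.131 in sham, and stood at 205 CPM in sham cells with 5 or more Saa3 UMIs, against 97.3 CPM in cells with none. Igkc did not hold as a companion: it stood at 18.6 CPM in Saa3-rich sham cells, against 249 CPM in cells with none, and was under 1 CPM in both NMOSD libraries. Ftl1 was 1.60-fold and Ifi27l2a 1.78-fold higher in Saa3-rich sham cells than in cells with none.

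Of the 10 genes that went most closely with Cp, 4 were of MHC class I. In sham 40 genes (0.478%) had an r of at least 0.1 with Cp, up to 0.197. The 10 highest were the membrane protein gene Itm2b, the MHC class I genes B2m, H2-Q7, H2-D1 and H2-K1, the glycoprotein gene Lgals3bp, the lysosomal genes Ctsl and Grn, Cd52, and Lox, which encodes lysyl oxidase, a cross-linker of matrix collagen. Lgals3bp was 2.40-fold, H2-Q7 2.27-fold and Lox 3.39-fold [2.08 to 5.25] higher in sham cells with 5 or more Cp UMIs than in cells with none. Fibroblast markers summed to 267 CPM in those Cp-rich sham cells and 0.0496 CPM in cells with none. Without the sham cell with most Cp no fibroblast marker UMI was left in the other 42, and Lgals3bp was 2.46-fold, H2-Q7 2.32-fold and Lox 3.47-fold [2.13 to 5.37] higher. Lox had an r with Cp of 0.156, 0.145 and 0.147 with APOE130-149, the control peptide and sham. At the other end P2ry12 stood at 1785 CPM in Cp-rich sham cells, against 2782 CPM in cells with none, and its r with Cp was −0.12 with APOE130-149, −0.09 with the control peptide and −0.12 in sham. UMIs per cell, which all genes of a cell share, had an r of −0.06 with Saa3 and 0.13 with Cp in sham, and the mitochondrial share of UMIs, a sign of cell quality, one of 0.03 with Saa3 and 0.14 with Cp.

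Ratios between rich and empty cells named other companions, some of which rested on single cells. Cells with 3 or more markers of a type with no class were left out of the ratios that ranked genes. They were kept, here and for Cp, wherever the cell with most UMIs of a gene was left out. The values without that cell therefore also rest on cells outside the ranking. Among sham microglia of at least 3000 UMIs the genes highest in Saa3-rich over Saa3-free cells were Fabp5, Ch25h, Wfdc17, Lgals1, Gm1673, Slc2a6, Cybb, Lilrb4a, Cp and Spp1. Of these 10, 8 were at least 1.5-fold higher in Saa3-rich cells with APOE130-149 and 7 with the control peptide, where 6.63% and 2.03% of all genes were. Without the Saa3-rich cell with most UMIs of each gene, 1 of the 10, Cp, was left past 1.5-fold with APOE130-149 and 3 with the control peptide, where 1.85% and 0.645% of all genes were, and 9 in sham, where they had been chosen by this ratio. In sham, without that cell, Wfdc17, of the whey acidic protein family, was 3.70-fold [2.73 to 4.94] higher and the cholesterol hydroxylase gene Ch25h 3.57-fold [2.71 to 4.65] higher. With APOE130-149 the Saa3-rich cell with most Wfdc17 held 77 UMIs of it. The Saa3-rich cell with most UMIs of the NADPH oxidase gene Cybb held 90. Whether both were the same cell was not recorded.

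For Cp the same measure named Spp1, Saa3, C3, Lgals3, Cd72, Lox, Lpl, Cybb, Il1b and Olfm4. Of these 6 were at least 1.5-fold higher in Cp-rich cells with APOE130-149 and 7 with the control peptide, where 7.84% and 6.94% of all genes were. Without the Cp-rich cell with most UMIs of each gene, 6 and 4 of the 10 were left with APOE130-149 and the control peptide, where 2.25% and 1.9% of all genes were, and 7 in sham, where they had been chosen. Lox was then 6.49-fold [3.28 to 11.9], 2.15-fold [0.690 to 5.10] and 2.77-fold [1.59 to 4.54] higher. The complement gene C3 was 2.37-fold [0.996 to 4.83], 3.0-fold [1.19 to 6.30] and 4.17-fold [2.44 to 6.72] higher. Before cells were put back, 35 of the 38 C3 UMIs in Cp-rich APOE130-149 cells lay in 1 cell. The 2.37-fold, and with it the place of C3 among the 6 genes, thus also counts UMIs of cells put back. The sham ratios of the osteopontin gene Spp1, with 191 UMIs in 1 cell, and of the lipase gene Lpl, with 66 in 1 cell, came to 0.999 and 0.935 without it. The Cp-rich sham cells that gave the ranking held 192 Spp1 and 86 Lpl UMIs in all. Both ratios without the cell thus also count UMIs of cells put back.

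Most other genes of the acute phase list were low in microglia. Besides Saa3 and Cp it held 32 genes, of which 5 reached 10 CPM, 19 were counted below that and 8 had no UMI in any library. The liver-type genes Saa1 and Saa2 had 3 and 1 UMIs in microglia of the APOE130-149 library and none in the other libraries, and Saa4 had none in any. Saa3 and Cp were chosen with their ratios known, so the counts set beside all genes here are of the 5 other genes. Between APOE130-149 and the control peptide 1 of the 5, C3, was higher by at least 1.5-fold and none was lower. Among all genes 0.725% were higher and 0.202% lower. Cp was past the bound too. C3 stood at 18.4 CPM with APOE130-149, against 10.5 CPM with the control peptide, with 16.6% of its APOE130-149 UMIs in 1 cell. Without the top cell of each library C3 was 1.51-fold higher [1.24 to 1.82], close to the bound. Cp was then 1.27-fold higher and no longer past it. Between the control peptide and sham none of the 5 passed the bound, while Saa3 and Cp were both lower by that much. In that pair 0.931% of all genes were lower and 1.44% higher. Between APOE130-149 and sham Saa3 was lower. Of the 5 others 1, Lcn2, which encodes the siderophore-binding lipocalin 2, was higher and none was lower. There 1.11% of all genes were lower and 1.81% higher. Lcn2 stood at 16.7 CPM with APOE130-149, against 7.84 CPM in sham, with 29.7% of its APOE130-149 UMIs in 1 cell; without the top cell of each library it was 1.53-fold higher. Over the 5 other genes that reached 10 CPM the median log2 ratio was 0.23, −0.10 and 0.25 for APOE130-149 over the control peptide, the control peptide over sham and APOE130-149 over sham, beside 0.01, −0.08 and −0.05 over all genes.

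The other genes of iron handling were not set apart from all genes by the 1.5-fold bound. Besides Cp, which was chosen by its levels, 15 of 19 such genes reached 10 CPM and none passed 1.5-fold in any pair of libraries. Among all genes 0.725% to 1.81% were higher and 0.202% to 1.11% lower. With shares that low, none among 15 is not read as a trait of these genes. The iron exporter gene Slc40a1, named here as the partner of Cp and not by size, stood at 121, 107 and 140 CPM with APOE130-149, the control peptide and sham. In sham the ferritin genes Ftl1 and Fth1 were with Cp the 3 of 16 iron genes with an r of at least 0.1 with Saa3. None of 15 had one with Cp. Among all 8369 genes the shares were 0.406% with Saa3 and 0.478% with Cp, so the count of none says little.

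Single regulators of acute phase genes differed, among them Socs3, which was higher in both NMOSD libraries than in sham. Of 22 such genes 20 reached 10 CPM in the control peptide and sham comparison, where 2 were higher and 1 was lower by at least 1.5-fold, against 1.44% and 0.931% of all genes. Socs3, an inhibitor of STAT3 signalling, stood at 137 CPM with APOE130-149, 92.7 CPM with the control peptide and 37.0 CPM in sham. Tnf stood at 10.6 CPM with the control peptide and 3.82 CPM in sham, 2.76-fold higher. Il1b, which encodes interleukin-1 beta, was 1.61-fold lower, with 9.55 CPM with the control peptide and 15.3 CPM in sham. Between APOE130-149 and sham the NF-kB regulators Nfkbiz and Nfkbia were higher, at 64.4 and 242 CPM with APOE130-149, against 36.2 and 154 CPM in sham, as was Socs3, 3.71-fold; these were 3 of 19 regulators, where 1.81% of all genes were higher. None passed the bound between the peptides. The C/EBP genes Cebpb, at 194, 172 and 158 CPM, and Cebpd, at 128, 119 and 130 CPM, named here for the promoter motif, did not pass it in any pair. In sham none of 18 regulators had an r of at least 0.1 with Saa3 or with Cp. Of 8369 genes 0.406% had one with Saa3 and 0.478% with Cp, so a count of none among so few says little.

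Of 11 receptors reported for serum amyloid A, 7 reached 10 CPM. With all microglia counted none passed 1.5-fold in any pair of libraries, where 0.725% to 1.81% of all genes were higher and 0.202% to 1.11% lower. Cd14, a co-receptor of Toll-like receptors, stood at 540, 485 and 427 CPM with APOE130-149, the control peptide and sham. Cd74, the MHC class II invariant chain, stood at 252, 362 and 309 CPM, and the Toll-like receptor gene Tlr2 at 161, 135 and 144 CPM. With APOE130-149 19.6% of the Cd74 UMIs lay in 1 cell. Without the top cell of each library Cd74 stood at 203 CPM with APOE130-149 and 344 CPM with the control peptide. It was then past the bound, 1.69-fold lower with APOE130-149. Tlr2 had an r of 0.101 with Cp in sham.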

How the data were processed

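The deposited values are UMI counts, whole numbers with no normalization, for each gene and cell barcode. This is stated per the file headers and holds for the values. The submitters' processing notes name Cell Ranger 5.0.1, Seurat 4.3.0 and mm10, and the file headers name Cell Ranger 7.0.1; which made the counts, and whether introns or strand were used, is not given in the sources used here. Intron counting would add UMIs to long genes such as Cp. Saa3, Cp, the gene lists and the markers were chosen with earlier results of these data known.

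Cells were kept from 500 detected genes up and with mitochondrial UMIs of 10% or less. Doublets were not called and were kept. A cell entered the border-associated macrophage, neutrophil or monocyte class with at least 3 detected markers of it and under 3 of the other classes; remaining cells with 3 microglia markers were microglia. Since the planned neutrophil class took in microglia, cells with under 3 microglia markers were used beside it. UMIs were summed per class and library and given as CPM, with exact Poisson, conditional or binomial 95% intervals; a count of 0 was given a limit of 3 counts. With 1 library per group no test was made. Correlations used log-scaled counts (10000 per cell) of genes of at least 10 CPM in at least 50 cells. Named were the 10 genes of highest r in sham and list members past 1.5-fold at 10 CPM, or else the 3 highest in sham; genes from ratios of rich to empty cells, Slc40a1, Cebpb and Cebpd were chosen after their values were seen. Steps were tested on simulated data. Python 3.11.15, numpy 2.4.6, scipy 1.17.1, pandas 2.3.3 and matplotlib 3.10.9 were used.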

Additional observations from a re-analysis of the deposited data

How the results depend on the processing

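No paired analysis was possible because each group is 1 library. Values are log2 ratios in microglia unless stated, and what caused the changes was not tested. For Saa3 the ratio of APOE130-149 over the control peptide (0.56) became −0.39 with 2 markers per class, 0.35 with 4, 0.30 over all cells, 0.23 without the top 0.25% of cells, 0.20 without cells above 2 times the median UMIs and 0.28 as a mean over cells. Control peptide over sham (−1.21) became −1.37 at 1000 genes and 5% mitochondrial UMIs, −1.07 with 4 markers, −1.02 over all cells, −1.45 without the top 0.25%, −1.49 without deep cells and −1.51 as a mean over cells. APOE130-149 over sham (−0.65) became −1.68 with 2 markers, −1.22 without the top 0.25%, −1.28 without deep cells and −1.23 as a mean over cells. For Cp, APOE130-149 over the control peptide (0.71) became 0.33 at 1000 genes, −0.14 with 2 markers, 0.48 over all cells, 0.40 without the top 0.25%, 0.28 without deep cells and 0.31 as a mean over cells. Control peptide over sham (−0.76) became −0.39 over all cells. APOE130-149 over sham (−0.05) became −0.40 at 1000 genes, −0.92 with 2 markers, −0.36 without the top 0.25%, −0.59 without deep cells and −0.36 as a mean over cells.

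Alternatives chosen after the data were seen gave, without the top cell, 0.047 and −1.22 for Saa3 (APOE130-149 over the control peptide and over sham) and 0.35 and −0.40 for Cp; without cells with markers of types with no class, 0.35 and −0.38 for Cp; and with neutrophil-marker cells put back, 0.11 and −1.02 for Saa3. Over 14 alternatives Saa3 stayed lower in the control peptide library than in sham (−1.51 to −1.02) and with APOE130-149 than in sham (−1.68 to −0.59), and Cp lower with the control peptide than in sham (−0.87 to −0.39); Cp with APOE130-149 over sham had either sign (−0.92 to 0.09).

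Border-associated macrophages over microglia, in the order APOE130-149, control peptide, sham, gave for Saa3 (2.25, 0.42, 0.22) 1.94, 1.27 and 0.87 with 2 markers and 3.80, 1.52 and −0.35 without deep cells, with 1.68 for APOE130-149 without top cells. For Cp (2.04, 2.84, 2.19) they gave 3.21, 2.14 and 3.73 in the 4, 3 and 2 cells with few microglia markers, 2.84 and 2.38 in the NMOSD libraries with 2 markers, and 3.24, 3.48 and 2.97 without deep cells; Saa3 had no UMI in those few cells, so no ratio was had.

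Detection thinned to 3000 UMIs was 4.45%, 3.31% and 6.09% for Saa3 and 7.06%, 4.59% and 8.07% for Cp; at 5000 UMIs it was 5.37%, 4.46% and 8.61%, and 8.46%, 7.35% and 11.2%. With 4 markers the control peptide library had 6.65% for Saa3 and 11.5% for Cp. The top 1% of microglia held 74.3%, 69.0% and 56.3% of Saa3 and 43.3%, 29.0% and 27.1% of Cp, the top 5% 96.1%, 98.1% and 91.1%, and 75.7%, 74.3% and 69.5%, and the top 10% 100%, 100% and 98.1%, and 92.4%, 99.6% and 90.4%. Without deep cells the top 0.25% held 34.9% of Saa3 with APOE130-149 and 34.3% in sham, and 9.58% of Cp with APOE130-149. The sham r of Saa3 with Cp was 0.084 without the 1% of cells with most Saa3 and 0.186 after thinning, where 4 of the 10 genes of highest r with Saa3 were shared; the log2 ratio of Cp in Saa3-rich sham cells (1.62) was 1.94 from 10 UMIs. Members of the 4 lists past the fold numbered 2, 5 and 5 in the pairs above, counts that include Saa3 or Cp, chosen by their levels. At 1 CPM they were 7 and 12 in APOE130-149 over the control peptide and over sham. At 50 CPM they were 0 and 2 in APOE130-149 over the control peptide and in control peptide over sham. At 2-fold they were 0, 3 and 2.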

Other observations

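Cells with 3 or more markers of types that had no class of their own were few, and their marker sets overlap. Of these, cells with endothelial markers numbered 17 with APOE130-149, 13 with the control peptide and 1 in sham, and held Cp at 426, 29.6 and 40.3 CPM. In the APOE130-149 library 73.4% of that Cp lay in the 1 cell that also carried fibroblast markers, at 2677 CPM [2183 to 3250]. The 1 sham cell with fibroblast markers held Cp at 1967 CPM [1273 to 2904], and neither cell held a Saa3 UMI. Cells with choroid plexus and ependymal markers, 9, 42 and 1 in number, had 0, 19 and 0 Cp UMIs, 18 of the 19 in 1 cell, and the single sham cell held 4 Saa3 UMIs. Cells with oligodendrocyte markers, 24, 51 and 4 in number, kept P2ry12 at 2467, 2116 and 2990 CPM and held Saa3 at 85.1, 64.3 and 217 CPM, the sham value from 1 cell. Cells with T and NK cell markers, 10, 29 and 1 in number, held 0, 22 and 0 Saa3 UMIs, of which 15 lay in 1 cell.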
